A study of Mus musculus with 10 samples.

Results

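Triglyceride synthesis, storage and lipolysis were followed in mouse hepatocytes through 10 genes taken by name: Lpin1, Lpin2, Gpam, Agpat2, Dgat1, Dgat2, Plin2, G0s2, Pnpla2 and Cidec. All 10 were found among the 14812 gene entries of the deposited tables, which spell them in lower case (lpin1, lpin2, gpam, agpat2, dgat1, dgat2, plin2, g0s2, pnpla2 and cidec). The study measured RNA of single hepatocytes at 4 times of day, to ask how expression varies with time and with position in the liver lobule. The mice were C57BL/6 males with an age of 3 months by the labels, on standard chow with free access, and anaesthetised with ketamine and xylazine. Their hepatocytes were released by collagenase perfusion and purified on Percoll, and every group shares this treatment. Zeitgeber time (ZT) counts hours of the light-dark cycle from lights on, so ZT0 to ZT12 is day and ZT12 to ZT24 is night, when mice are active and feed. There were 3 libraries at ZT0 (A, B and C), 2 at ZT6 (A and B), 3 at ZT12 (A, B and C) and 2 at ZT18 (A and B). How many animals stand behind a library is not in the labels, so p-values measure the spread between these libraries, which may be partly technical.

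Triglyceride is built on glycerol 3-phosphate. Gpam (the mitochondrial acyltransferase GPAT1) adds the first fatty acid, and Agpat2 adds the next to give phosphatidic acid. The lipins Lpin1 and Lpin2 remove the phosphate to give diacylglycerol, and Dgat1 and Dgat2 add the last fatty acid. The product is stored in lipid droplets, which Plin2 coats and Cidec enlarges by lipid transfer between droplets. Pnpla2 (adipose triglyceride lipase, ATGL) takes off the first fatty acid again, Abhd5 activates it, and G0s2 binds and inhibits it. In the liver lobule, blood enters at the portal vein and leaves at the central vein, and hepatocytes differ in expression along that axis.

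The 10 libraries held 18378 cells, 710 to 2860 each, with 1454623 to 7144803 UMIs (unique molecular identifiers, 1 for each captured RNA molecule). The median cell of a library had 1588 to 2662 UMIs. Levels are CPM (UMIs scaled to a common library total) on library sizes scaled by TMM, a factor that evens out differences in RNA composition, and are given as the mean ± SD of the libraries. All 8 hepatocyte markers had UMIs, with a summed level of 37584 to 70889 CPM. Of 6 adipocyte markers, 3 were measured (Plin1, Fabp4 and Cfd) and summed to 0.618 to 7.47 CPM. Adipocytes also express most of the 10 genes. The part of adipocyte RNA in the results was not tested. Library ZT18B stood apart in haemoglobin RNA, with a summed level of 308 CPM, against 9.01 CPM in ZT18A and 0.329 to 8.65 CPM elsewhere.

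The lipins had the clearest change with time of day. Lpin1 stood at 46.0, 42.9 and 48.3 CPM at ZT0, 88.1 and 112 CPM at ZT6, 805, 413 and 585 CPM at ZT12, and 64.3 and 86.6 CPM at ZT18. The groups did not overlap at any step of the order ZT12, ZT6, ZT18, ZT0. The share of all genes with such an order was not counted. Libraries of ZT18 and ZT6 did not overlap for 63.1% of all genes, and those of ZT12 and ZT0 for 17%. Between ZT18 and ZT6, Lpin1 differed by -0.40 ± 0.30 (log2, SE, edgeR adjusted p = 0.498). The mean of the time groups spanned 13.1-fold, from 45.7 ± 2.70 CPM (n = 3) at ZT0 to 601 ± 197 CPM (n = 3) at ZT12. Lpin1 encodes a lipin that also acts as a transcriptional coactivator of fatty acid oxidation genes. ZT12 exceeded ZT0 by 3.71 ± 0.27 on the log2 scale (SE, edgeR adjusted p = 3.98e-06). Libraries with the same letter at ZT0 and ZT12 shared a column of the index plate, and within these 3 pairs Lpin1 was 3.24 to 4.10 higher at ZT12 on the log2(CPM + 1) scale.

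A 24-h wave fitted to all 10 libraries gave Lpin1 an amplitude of 1.87 (log2 distance from mean to crest), a crest near ZT 11.6 and a 13.5-fold distance from trough to peak (edgeR adjusted p = 0.00032). A single cosine of 24 h, the shape fitted here, gives no difference between the mean of ZT0 with ZT12 and that of ZT6 with ZT18. The difference was 0.93 ± 0.20 for Lpin1, with the first mean higher (log2, SE, edgeR adjusted p = 0.062). It passed the threshold with DESeq2 (adjusted p = 0.00146), with no filter on low genes (0.00655) and without library ZT12B (0.0215). With 6 h between samples, the shape of the rise near ZT12 was not resolved.

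Lpin2, the other main lipin of liver, followed a similar order with a smaller span. Its levels were 82.7, 121 and 106 CPM at ZT0, 199.9 and 241 CPM at ZT6, 313, 198 and 219.6 CPM at ZT12, and 135 and 129 CPM at ZT18. ZT6 and ZT12 overlapped and lay above ZT18, which lay above ZT0. ZT12 exceeded ZT0 by 1.24 ± 0.22 (log2, edgeR adjusted p = 0.00645), with 0.71 to 1.91 within the 3 letter pairs. The fitted wave crested at ZT 9.94 with an amplitude of 0.72 (edgeR adjusted p = 0.00842).

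Promoter windows are printed for the 3 genes with a rhythm call whose windows held one of the motifs searched, so that the letters upstream of each start can be read. They hold the 250 bases before a transcription start, from RefSeq on GRCm38.p6, 5′ to 3′ on the gene's strand, with the motif found in capitals. The Lpin1 window is chr12:16610967-16611216 on the minus strand. It lies inside the span of the gene (chromosome 12, 16535669 to 16653903), at one of its start sites, and holds no exon base of GENCODE M21. The Lpin2 window is chr17:71183282-71183531 on the plus strand, just before the gene (chromosome 17, 71183532 to 71249818). The Plin2 window is chr4:86670060-86670309 on the minus strand, and overlaps the upstream end of the gene's span (chromosome 4, 86626910 to 86670217) with 1 exon base.
Lpin1: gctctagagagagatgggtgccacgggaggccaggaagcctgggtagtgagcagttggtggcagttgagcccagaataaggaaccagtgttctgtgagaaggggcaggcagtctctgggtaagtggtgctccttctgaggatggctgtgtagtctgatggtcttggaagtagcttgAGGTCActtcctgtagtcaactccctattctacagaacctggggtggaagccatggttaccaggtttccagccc
Lpin2: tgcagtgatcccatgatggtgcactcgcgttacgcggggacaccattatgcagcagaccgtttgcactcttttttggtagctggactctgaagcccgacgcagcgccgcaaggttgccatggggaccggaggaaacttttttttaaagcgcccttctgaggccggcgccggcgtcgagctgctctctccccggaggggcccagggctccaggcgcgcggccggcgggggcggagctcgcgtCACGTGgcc
Plin2: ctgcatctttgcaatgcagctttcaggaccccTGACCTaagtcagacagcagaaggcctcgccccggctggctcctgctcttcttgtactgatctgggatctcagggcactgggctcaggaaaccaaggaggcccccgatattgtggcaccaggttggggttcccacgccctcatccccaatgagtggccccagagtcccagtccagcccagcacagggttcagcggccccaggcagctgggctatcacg
Both strands were searched for CACGTG (an E-box), TTATGTAA (a D-box), AGGTCA (a core motif of nuclear receptors) and DR1, a tandem repeat of AGGTCA that a single base divides and that overlaps it. Lpin1 held AGGTCA 74 bases before the start, Plin2 held it on the other strand as TGACCT, 218 bases before the start, and Lpin2 held CACGTG 9 bases before the start. Gpam, with no rhythm call, also held AGGTCA in 1 of its 2 windows, 196 bases before the start. The other 2 windows of Lpin2, the window of G0s2 and the remaining windows searched held none of the 4 motifs. Of 32851 windows of the same length, 14.0% held AGGTCA, 6.02% CACGTG, 0.819% TTATGTAA and 0.0335% DR1. Windows were found for 8 of the 10 genes, with no entry for Dgat1 and Dgat2. A match describes letters only.

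**Figure D1:**
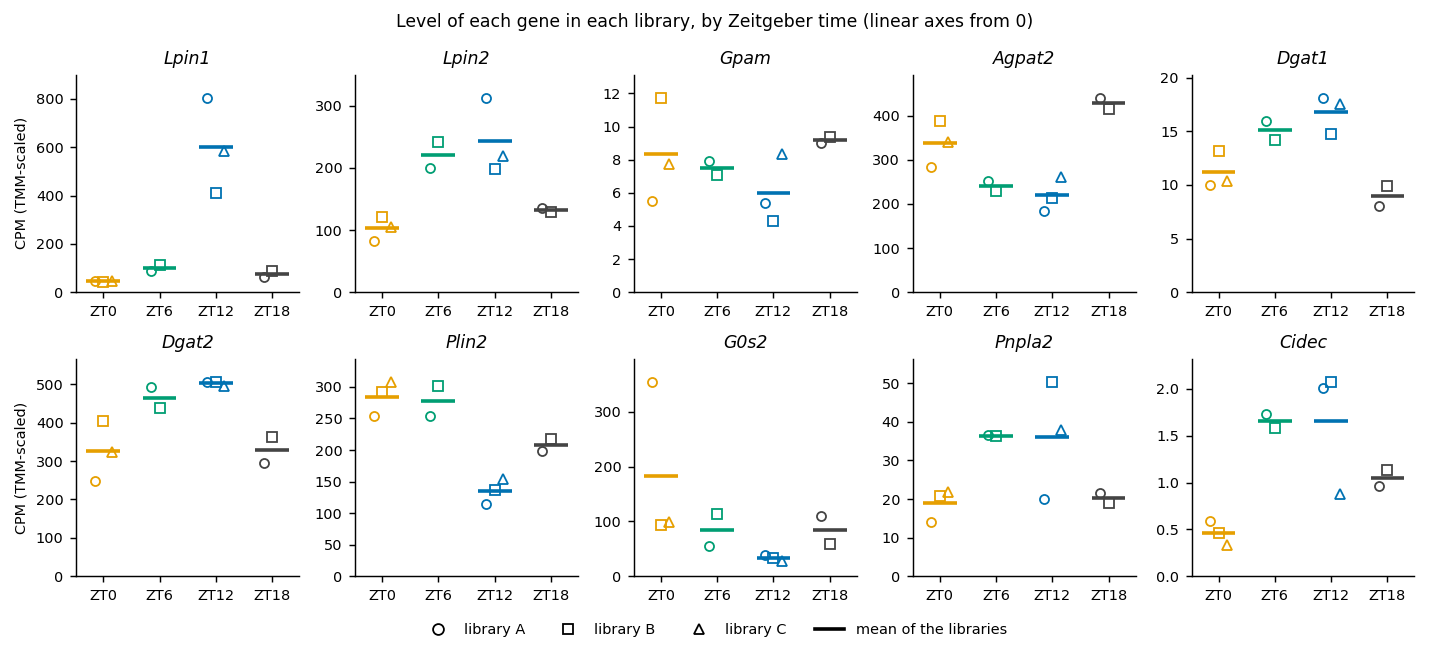
Level of each of the 10 genes in CPM on TMM-scaled library sizes (linear axes from 0) against Zeitgeber time. Each open symbol is a library (circle A, square B, triangle C) and each bar the mean of its group. Lpin1 peaked at ZT12, Plin2 and G0s2 were lowest at ZT12, and the ZT0A library stood at 355 CPM for G0s2.

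The acyltransferases of the first steps did not pass in any time comparison of the main edgeR fit (TMM factors, a mean of 3 CPM or more, no block). Gpam (chromosome 19, 55067635 to 55127319) was low, with 329 UMIs in all and 4.29 to 11.7 CPM over the 10 libraries, and groups next to each other in its order (ZT18, ZT0, ZT6, ZT12) overlapped, while ZT18 (9.01 and 9.34 CPM) lay above ZT6 and ZT12. Agpat2 (chromosome 2, 26593057 to 26604417), whose loss causes generalized lipodystrophy, had 440.0 and 416 CPM at ZT18 and 284, 388 and 339 CPM at ZT0. It had 251 and 229 CPM at ZT6 and 185, 213 and 261 CPM at ZT12, and these last groups overlapped. ZT18 lay above ZT0, and ZT0 above ZT6 and ZT12. The difference between ZT18 and ZT6 was 0.83 ± 0.25 (log2, edgeR adjusted p = 0.0818) and that between ZT12 and ZT0 was -0.62 ± 0.20 (0.135). With the index plate column as a block, the ZT12 to ZT0 difference of Agpat2 passed (-0.62, edgeR adjusted p = 0.0182). The Agpat2 wave, cresting at ZT 20.4 with an amplitude of 0.52, was just outside the threshold (edgeR adjusted p = 0.0536). With the letter as a block it passed (edgeR adjusted p = 0.0399). Of 21 alternatives 9 passed, among them an edgeR test of any difference among the 4 times (adjusted p = 0.0479), which fits no wave. Another was the index plate column as a block (0.0318), where ZT18 adds nothing to the wave.

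The enzymes of the last step were highest at ZT12 and ZT6 without passing in the main edgeR fit. Dgat2 (chromosome 7, 99153663 to 99182713), tied to newly made fatty acids, had 506, 506 and 497 CPM at ZT12, 492 and 439 CPM at ZT6, 294 and 363 CPM at ZT18, and 249, 404 and 324 CPM at ZT0. ZT12 lay above ZT6, and both lay above the overlapping groups of ZT18 and ZT0. Its ZT12 to ZT0 difference was 0.63 ± 0.22 (log2, edgeR adjusted p = 0.158), and all 3 letter pairs were higher at ZT12. With the index plate column as a block it passed (0.65, edgeR adjusted p = 0.0279), and with the letter as a block it did not (0.0781). The Dgat2 wave crested at ZT 9.42 with an amplitude of 0.40 (edgeR adjusted p = 0.116). Of 21 alternatives, that wave passed with DESeq2 alone (DESeq2 adjusted p = 0.0159). Dgat1 (chromosome 15, 76502012 to 76512021), an enzyme of the endoplasmic reticulum unrelated in sequence to Dgat2, had 8.04 and 9.91 CPM at ZT18, 10.0 to 13.1 CPM at ZT0 and 14.2 to 18.1 CPM at ZT6 and ZT12. Its ZT12 to ZT0 difference was 0.56 ± 0.21 (edgeR adjusted p = 0.213), and its wave crested at ZT 8.49 with an amplitude of 0.46 (0.107).

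The droplet coat gene Plin2 was lowest at ZT12. It stood at 254, 291 and 308 CPM at ZT0, 254 and 301 CPM at ZT6, 114, 136 and 155 CPM at ZT12, and 199 and 217 CPM at ZT18. ZT0 and ZT6 overlapped, and ZT18 lay between them and ZT12. Plin2 fell from 285 ± 27.4 CPM (n = 3) at ZT0 to 135 ± 20.3 CPM (n = 3) at ZT12, a log2 difference of -1.07 ± 0.19 (edgeR adjusted p = 0.00645). Within the 3 letter pairs the difference was -1.15 to -0.99. Its fitted wave crested at ZT 1.41 with an amplitude of 0.57 (edgeR adjusted p = 0.0234). The wave missed the threshold without library ZT12A (0.0503), ZT12B (0.0767) or ZT18A (0.0529), with libraries scaled by their total alone (0.0529) and in cells with at least 3000 UMIs (0.0653), whereas the ZT12 to ZT0 call held in all 20 alternatives.

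Cidec (chromosome 6, 113424634 to 113435760), best known from fat cells and fatty liver, had 48 UMIs in all 10 libraries. It failed the filter of a mean of 3 CPM and was not tested. Its levels were 0.329 to 0.590 CPM at ZT0, 1.58 and 1.73 CPM at ZT6, 0.879 to 2.07 CPM at ZT12, and 0.965 and 1.13 CPM at ZT18. These rest on 2 to 15 UMIs per library, so its order over the day was not resolved at this depth.

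Of the lipase and its inhibitor, the inhibitor G0s2 passed the rhythm and ZT12 to ZT0 tests of the main edgeR fit, which had no block. Pnpla2 missed both there, and passed both in some of the alternatives given below. Whether these genes differ from each other in their change with time was not tested. G0s2 (chromosome 1, 193272160 to 193273188) stood at 355, 93.9 and 99.6 CPM at ZT0, 55.1 and 114 CPM at ZT6, 39.6, 32.6 and 27.2 CPM at ZT12, and 111 and 59.4 CPM at ZT18. ZT12 lay below every other library, and the other groups overlapped. G0s2 fell between ZT0 and ZT12 by 2.47 ± 0.49 on the log2 scale (SE, edgeR adjusted p = 0.0111). Library ZT0A carried much of that size. Without it the difference was -1.56 (edgeR adjusted p = 0.0144), and the call was lost without ZT12B (0.0535) or ZT12C (0.0566).

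The G0s2 wave crested at ZT 23.97 with an amplitude of 1.23 (edgeR adjusted p = 0.0218). Without ZT0A its amplitude was 0.82 (0.0859), and without ZT12A, ZT12B or ZT12C the adjusted p was 0.0593 to 0.0707. Pnpla2 (chromosome 7, 141455188 to 141460743), the target of G0s2, had 14.0, 20.8 and 21.9 CPM at ZT0, 36.6 and 36.3 CPM at ZT6, 20.1, 50.3 and 37.8 CPM at ZT12, and 21.5 and 19.0 CPM at ZT18. Its neighbouring groups overlapped, and library ZT12A lay within the range of ZT0. The ZT12 to ZT0 difference was 0.98 ± 0.28 (log2, edgeR adjusted p = 0.0733), and the wave crested at ZT 9.26 with an amplitude of 0.65 (0.0522). With the letter as a block, both passed (edgeR adjusted p = 0.034 and 0.0305), and without ZT12A the difference was 1.23 (0.0137). Both also passed with no block in DESeq2 (DESeq2 adjusted p = 0.0409 and 0.00983) and with no filter on low genes (edgeR adjusted p = 0.0196 and 0.0218). In all, the difference passed in 5 of 20 alternatives and the wave in 8 of 21. With the index plate column as a block, the Pnpla2 difference (edgeR adjusted p = 0.00479) and wave (0.0138) passed. The ZT18 libraries have an index column to themselves, so a wave fitted with that block rests on ZT0, ZT6 and ZT12 only.

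Of the 9 genes tested, 4 had a 24-h rhythm at an edgeR adjusted p under 0.05 (Lpin1, Lpin2, Plin2 and G0s2), and 5.14% of the 8908 genes tested did. At an unadjusted p under 0.05 there were 8 of 9, against 20.4% of all genes. The median amplitude was 0.57 over the 9 genes and 0.25 over all genes. The genes were chosen with earlier results of these data known. These shares and medians, and those that follow, are thus no test of the pathway. Between ZT12 and ZT0, in the main edgeR fit with no block, 2 rose (Lpin1 and Lpin2) and 2 fell (Plin2 and G0s2). Of all genes, 1.74% were higher, 1.7% lower and 3.44% either. The median size of the ZT12 to ZT0 difference, without sign, was 0.98 over the 9 genes and 0.25 over all. Letters pair libraries of these times, and with the letter as a block 5 of 9 passed, adding Pnpla2. With the index plate column as a block 7 passed, adding Agpat2, Dgat2 and Pnpla2. That block called 767 of all genes, against 306 with no block.

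Between ZT18 and ZT6, 0 of 9 passed with edgeR, 4 at an unadjusted p under 0.05, and DESeq2 called 1 (Agpat2). Of all genes, 3.79% passed (2.35% higher and 1.45% lower) and 19.6% did at the unadjusted p. Levels of the libraries did not overlap for 63.1% of all genes between ZT18 and ZT6, with 2 libraries each, and for 17% between ZT12 and ZT0. The mean of ZT0 with ZT12 against that of ZT6 with ZT18 called 0 of 9 with edgeR, 1 at an unadjusted p under 0.05 and 1 with DESeq2, both Lpin1, against 0.505% and 12% of all genes. Lpin1 and Lpin2 kept their rhythm in 21 of 21 alternatives and their ZT12 to ZT0 call in 20 of 20.

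**Figure D2:**
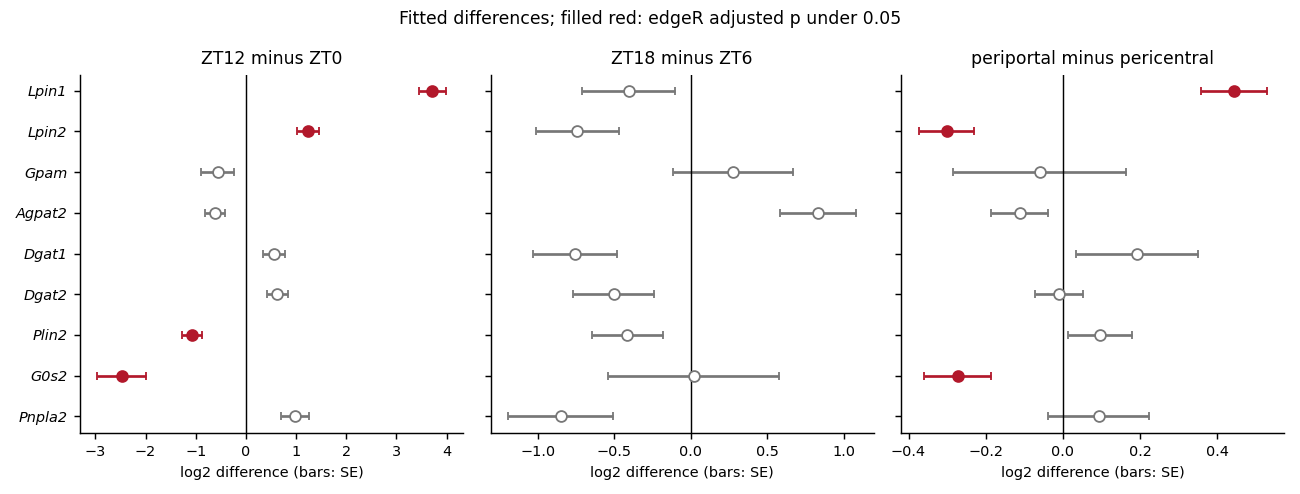
Fitted log2 differences (x axes, bars ± SE) of the 9 tested genes between ZT12 and ZT0, between ZT18 and ZT6, and between the periportal and pericentral zones. Filled red points have an edgeR adjusted p under 0.05: 4 genes in the first comparison, 0 in the second and 3 in the third, and the axes differ in scale.

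Position in the lobule was taken from 16 landmark genes, none of them among the 10. Cells of each library were ordered by 8 periportal against 8 pericentral landmarks, and the outer zones, each 1 of 3 equal parts, were compared with the library as a block. Of 8 genes of known zonation that were not used for the order, 8 were called in the listed direction. Differences along the lobule were smaller than those over the day. Of the 9 genes, 3 passed (Lpin1, Lpin2 and G0s2), against 24.8% of 8923 genes, which is near the share among the 9. The median size without sign was 0.11 over the 9 genes and 0.19 over all.

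The lipins lay in opposite directions. Lpin1 was higher in periportal cells by 0.44 ± 0.08 (log2, SE, edgeR adjusted p = 0.000107), in 10 of 10 libraries. Lpin2 was higher in pericentral cells, with a difference of -0.30 ± 0.07 (edgeR adjusted p = 0.00156), in 9 of 10 libraries. The direction was the same in all libraries for 11.4% of all genes. Averaged over 10 libraries, Lpin1 had 192 ± 235 CPM in the pericentral zone and 248 ± 282 CPM in the periportal one, where the SD holds the change over the day. For Lpin2 these levels were 192 ± 81.2 and 153 ± 53.8 CPM.

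Within each library, the zone difference of Lpin1 exceeded that of Lpin2, by 0.75 ± 0.31 on the log2(CPM + 1) scale (SD, n = 10, above 0 in 10 of 10, two-sided exact sign-flip permutation p = 0.00195, the smallest that 1024 flips can give). That comparison was chosen after the opposite signs of the lipins' zone differences were seen, so its p adds no separate support. In 8 layers of the cell order, the highest Lpin1 layer was among layers 5 to 8, the portal side, in 9 of 10 libraries. The highest Lpin2 layer was among layers 1 to 4, the central side, in 9 of 10. At ZT12, Lpin1 had 415 ± 61.5 CPM next to the central vein, 717 ± 252 CPM in layer 6 and 595 ± 154 CPM next to the portal vein (n = 3). Lpin2 had 269.6 ± 71.1 CPM in the layer next to the central vein and 183 ± 17.1 CPM in the layer next to the portal vein. At ZT6, Lpin2 had 224 ± 4.83 and 225 ± 48.2 CPM in these layers (n = 2). By time, the mean zone difference of Lpin2 was -0.54 at ZT12, -0.30 at ZT0, -0.11 at ZT6 and -0.10 at ZT18. In cells with at least 3000 UMIs, of which ZT12C held 44, the Lpin1 difference was 0.19 (edgeR adjusted p = 0.346).

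**Figure D3:**
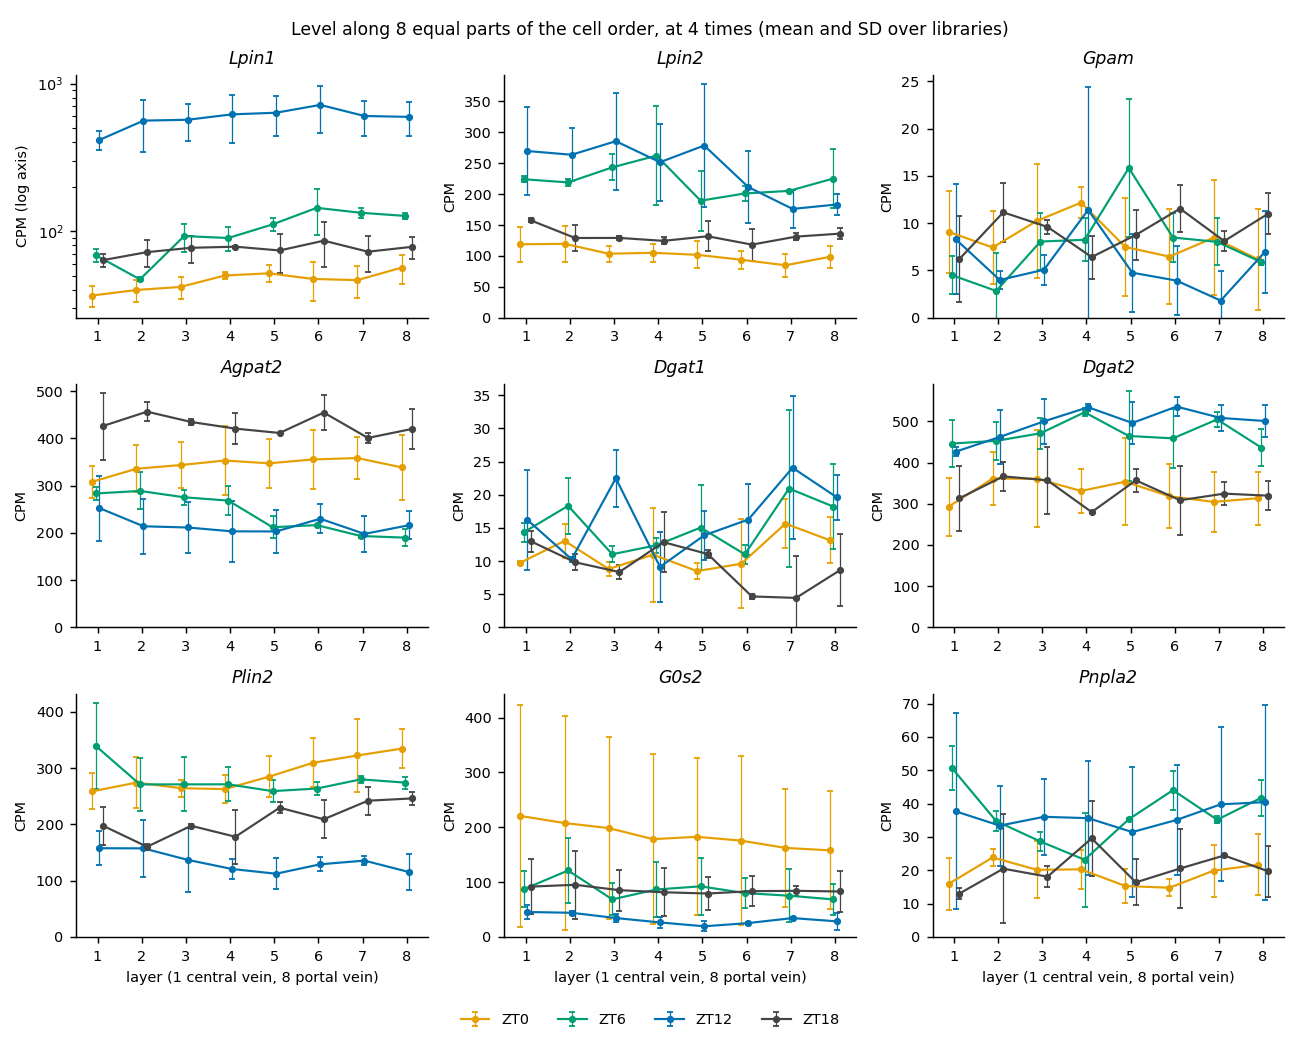
Level of the 9 tested genes in CPM (Lpin1 on a log axis, the others linear) in 8 equal parts of the cell order, from the central vein (layer 1) to the portal vein (layer 8). Lines are means of the libraries at each time and bars the SD. Lpin1 is lower in layer 1 than in layer 8 at each time, with its highest mean in layer 6 at ZT6, ZT12 and ZT18. The lines of Lpin2 at ZT0 and ZT12 slope down to the portal side, while times differ more than layers for both lipins.

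G0s2 was higher in pericentral cells, with a difference of -0.27 ± 0.09 (log2, edgeR adjusted p = 0.0181), in 8 of 10 libraries. Its call was lost with DESeq2 (adjusted p = 0.0695), in cells with at least 3000 UMIs (edgeR 0.506), without ZT0A (0.106) and without ZT6A (0.052). The other 6 tested genes did not pass. Their fitted differences were 0.19 ± 0.16 for Dgat1, 0.10 ± 0.08 for Plin2, 0.09 ± 0.13 for Pnpla2, -0.01 ± 0.06 for Dgat2, -0.06 ± 0.22 for Gpam and -0.11 ± 0.07 for Agpat2. Plin2 passed in cells with at least 3000 UMIs (0.33, edgeR adjusted p = 0.00919), and Agpat2 passed when libraries were scaled by their total alone (-0.21, 0.0279). That scaling moved the median zone difference of all genes to -0.11. Without both ZT18 libraries the same 3 genes were called.

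The zone difference was also followed by time. For Lpin1 it was 0.97 and 1.13 at ZT6 on the log2(CPM + 1) scale, and 0.16 to 0.53 in the other 8 libraries. The share of all genes with such a gap was not counted. Lpin1 rose from 63.0 ± 3.15 CPM in pericentral cells to 132 ± 17.1 CPM in periportal cells at ZT6 (n = 2). Plin2 was higher in periportal cells in all libraries at ZT0 (0.08 to 0.51) and ZT18 (0.24 and 0.62), and higher in pericentral cells in all 3 at ZT12 (-0.58 to -0.10). At ZT12 its pericentral level was 157 ± 36.9 CPM and its periportal level 125 ± 8.41 CPM, against 265 ± 30.9 and 324 ± 49.6 CPM at ZT0 (n = 3 each). The test of a rhythm that depends on zone called 0 of 9 genes with edgeR and 0 with DESeq2, against 0.0448% of all genes. At an unadjusted p under 0.05 there were 2, Lpin1 and Plin2, against 6.16% of all genes. Their adjusted p from edgeR was 0.568 for Lpin1 and 0.447 for Plin2.

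**Figure D4:**
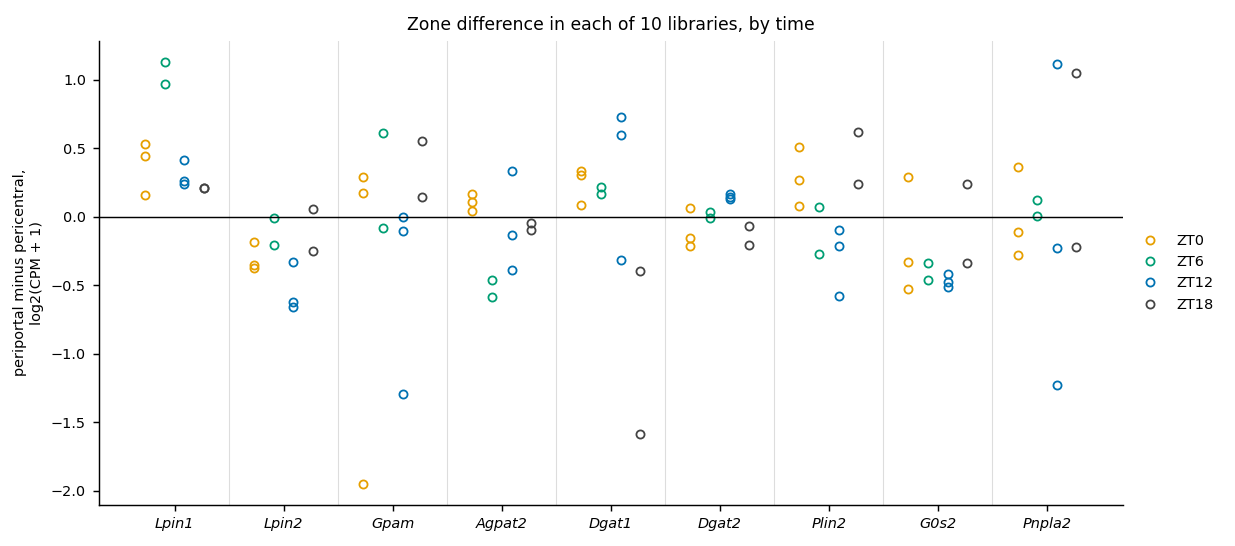
Periportal minus pericentral difference in log2(CPM + 1) for the 9 tested genes, with 1 open circle per library, coloured by time. Lpin1 lies above 0 in 10 of 10 libraries and highest at ZT6, Lpin2 lies below 0 in 9 of 10, and Plin2 lies above 0 at ZT0 and ZT18 and below 0 at ZT12.

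Other genes of the pathway were read from 6 lists, of which 54 genes were tested for time and 53 for zone (the landmark Hsd17b13 was left out). A 24-h rhythm was called for 6 of 54, against 5.14% of all genes. The 6 include the clock genes Nr1d1, Nr1d2 and Dbp, and the lists were chosen with earlier results of these data known. Shares of these lists are thus no test of the pathway. In the synthesis list it was 1 of 6, Gpat4, the endoplasmic reticulum enzyme of the same step as Gpam. Gpat4 rose from 75.6 ± 4.99 CPM at ZT0 to 157 ± 16.0 CPM at ZT12 (n = 3), by 1.05 ± 0.19 (log2, edgeR adjusted p = 0.00645), with a crest at ZT 11.1. In cells with at least 3000 UMIs, Gpat4 lost its rhythm call (edgeR adjusted p = 0.0577) and its ZT12 to ZT0 call (0.0528). In the lipolysis list a rhythm was called for 1 of 11, Abhd5, the activator of Pnpla2. Abhd5 fell from 45.7 ± 5.18 CPM at ZT0 to 24.5 ± 3.63 CPM at ZT12, by 0.87 ± 0.20 (edgeR adjusted p = 0.0274), with a crest at ZT 21.4. The ZT12 to ZT0 call of Abhd5 was lost in 8 of 20 alternatives, among them without ZT0A (0.0723), ZT0B (0.0534), ZT6A (0.0513), ZT6B (0.0516), ZT12A (0.0792) or ZT12C (0.0879). Its rhythm call was lost in 1 of 21, in cells with at least 3000 UMIs (0.175).

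The remaining 4 were regulators, of 12 tested: the coactivator gene Ppargc1a (adjusted p = 0.00828) and the clock genes Nr1d1, Nr1d2 and Dbp. Nr1d1 encodes a repressor driven by the clock, with 31.4 ± 8.74 CPM at ZT6 and at most 5.73 ± 3.89 CPM in the mean of another time. Dbp encodes a clock output factor that binds D-boxes. Dbp had 117 ± 18 CPM at ZT6 and 113 ± 40.4 CPM at ZT12, but 8.55 ± 0.720 CPM at ZT18 and 2.81 ± 0.467 CPM at ZT0. None of 10 droplet genes, 10 uptake genes or 5 lipoprotein loading genes had a rhythm call. Plin5, a droplet coat gene of oxidative tissues, was higher at ZT18 (26.4 ± 4.64 CPM) than at ZT6 (13.5 ± 2.14 CPM, n = 2 each), by 0.99 ± 0.25 (edgeR adjusted p = 0.043). That call was lost in 8 of 19 alternatives, among them without ZT6A (0.314), ZT6B (0.16), ZT18A (0.124), ZT18B (0.339) or ZT12C (0.0528).

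Along the lobule, 28 of 53 pathway genes passed, 10 higher in periportal and 18 in pericentral cells, against 12% and 12.8% of all genes. Of 9 droplet genes tested, 5 were called, all pericentral, while the droplet coat gene Hsd17b13 served as a periportal landmark and was left out. Fitm1, which partitions triglyceride into droplets, had 93.0 ± 31.1 CPM in pericentral and 8.48 ± 8.30 CPM in periportal cells (n = 10, log2 difference -3.43 ± 0.16, edgeR adjusted p = 2.2e-18). Its relative Fitm2 differed by -0.68 ± 0.11 (6.8e-06), and Hilpda, an inhibitor of Pnpla2, by -1.15 ± 0.30 (0.00354, and 0.167 in cells with at least 3000 UMIs or 0.0502 with even-numbered landmarks alone). Of 10 uptake genes, 5 were pericentral, among them Cd36 (-2.47 ± 0.26) and Fabp1 (-0.79 ± 0.10), and Slc27a5 was periportal (0.27 ± 0.07, lost with library totals alone, edgeR adjusted p = 0.0589).

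The 3 lipoprotein loading genes called were periportal, Tm6sf2 by 0.88 ± 0.16, P4hb by 0.20 ± 0.06 and Apob by 0.17 ± 0.06. With library totals alone, P4hb (0.10, edgeR adjusted p = 0.205) and Apob (0.07, 0.374) lost the call, and Apob also did without ZT6A or ZT6B (0.0516 each). In the synthesis list, Pnpla3, the lipid droplet protein tied to fatty liver in humans, was periportal (1.72 ± 0.32, edgeR adjusted p = 9.32e-05) and Gpd1 pericentral (-0.25 ± 0.08, 0.0145). The Gpd1 call was lost without ZT6B (0.0521) and in cells with at least 3000 UMIs (0.277). The lipolysis list had 2 periportal and 4 pericentral calls, with Aadac at 0.69 ± 0.09 and Ces1g at -0.77 ± 0.07. Of the regulators, Ppargc1a was periportal (1.73 ± 0.16) and Pparg pericentral (-3.89 ± 0.33), 10.4 ± 3.11 against 0.602 ± 0.677 CPM.

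By root mean square difference of centred log2(CPM + 1) profiles over 12 points (4 times and 3 zones), the nearest of 8923 genes were named for both genes that spanned more than 2. Lpin1 spanned 3.97 and was nearest to Usp2 (0.47), St3gal5 (0.54) and Ciart (0.61), against 1.39 for a flat profile. G0s2 spanned 2.70 and was nearest to Insig2 (0.27), Chic1 (0.29) and S100a10 (0.29), against 0.81 for a flat profile.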

How the data were processed

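UMI counts per gene and cell were deposited by the authors as 1 table per library (made, per the labels' protocols, with version 2 of the 10x kit for 3' ends). The submitters' processing notes name Cell Ranger and the builds hg19 and mm10 with no role, and the annotation and cell filter are not given in the sources used here. The deposited cells had 1048 to 10001 UMIs each. All were kept, no doublet caller was run, and an alternative dropped the 5% of cells richest in UMIs. Columns carry serial numbers in place of barcodes, so barcodes shared between libraries were not counted.

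Counts were summed per library, and per zone within it, and genes averaging 3 CPM or more were fitted in edgeR 4.0.16 under R 4.3.3, with TMM factors, glmQLFit and glmQLFTest. Benjamini-Hochberg adjustment ran over all genes tested, with a threshold of 0.05. Rhythm was a 2-df test of cosine and sine at 24 h. SE came from the log2 difference and the root of its F statistic. The tests were checked on simulated counts. DESeq2 1.42.0 and the other alternatives are in the closing section. The genes named were the 10 members, per list the 2 called rhythmic genes of largest amplitude and the 2 zonated genes of largest difference, and the 3 nearest profiles of members spanning more than 2. Fitm2, Slc27a5, Apob, Nr1d2, Plin5, the Ppargc1a rhythm and the genes of the closing observations were named after their values were seen. The members and lists were chosen with earlier results of these data known.

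No pair of libraries of a group agreed within sampling noise (chi-square per degree of freedom 5.304 to 63.574). Deviations of same-letter libraries at ZT0 and ZT12 correlated with r = 0.239, 0.42 and 0.473 across genes, so letters pair these times, which also share index plate columns. All other time pairs gave -0.035 to 0.107. Between cells of a library, positions from the odd landmarks and from the even ones gave r of 0.6829 to 0.8465.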

Additional observations from a re-analysis of the deposited data

Results flagged for a closer look

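Several zone differences (periportal minus pericentral, log2(CPM + 1), mean over libraries) had opposite signs in every library at different times. The differences between pairs of times were not tested, and the zone-dependent rhythm test called none of these genes. Such a change of sign between any pair of times was found for 4 of the 9 genes and for 21.1% of 8923 genes, by pair for 1.94% (ZT0 and ZT12) to 11.4% (ZT6 and ZT18). Plin2 had 0.2843 at ZT0 against -0.2978 at ZT12, and -0.2978 at ZT12 against 0.4284 at ZT18. Dgat2 had 0.1466 at ZT12 against -0.1389 at ZT18. Dgat1 had 0.1899 at ZT6 and 0.2422 at ZT0, each against -0.9898 at ZT18. Agpat2 had 0.1037 at ZT0 against -0.5252 at ZT6 and -0.07132 at ZT18. With libraries scaled by their total alone, the Agpat2 patterns and that of Dgat1 between ZT0 and ZT18 did not hold, while those of Plin2 and Dgat2 and that of Dgat1 between ZT6 and ZT18 did.

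Library ZT18A stood far from the others in the zone difference of Dgat1, at -1.586 against -0.3939 to 0.7247. Chance flags about 1 in 20 such groups, and 9 genes were looked at. Dgat1 had 60 UMIs over both ZT18 libraries, so counting error is large there.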

How the results depend on the processing

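Of the 9 genes, the number with a rhythm call was 4, 7 with DESeq2 (adding Agpat2, Dgat2 and Pnpla2), and 2 to 4 when 1 library was left out, with 2 without ZT12B. Between ZT12 and ZT0 it was 4, 7 with the index plate column as a block (adding Agpat2, Dgat2 and Pnpla2), and 3 to 5 with 1 library left out. Between ZT18 and ZT6 it was 0, and 1 (Agpat2) with DESeq2 or with the replicate letter as a block. The mean of ZT0 with ZT12 against that of ZT6 with ZT18 (the even contrast) called 0, 1 with DESeq2, 1 with no filter, and 0 to 1 with 1 library left out, with 1 without ZT12B (each time Lpin1). Zone calls ranged from 2 to 4 and zone-dependent rhythm stayed at 0 in all alternatives run. No direction reversed among called values. With the letter as replicate block, rhythm called 6, ZT12 against ZT0 5, and the even contrast and zone-dependent rhythm 0, and among the 9 genes it changed no call other than those of Agpat2 and Pnpla2. The index column block was not run for ZT18 against ZT6 and the even contrast, since columns and times cannot be told apart there. For the same reason, rhythm calls with that block draw nothing from ZT18, whose libraries have a column to themselves.

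Over all genes tested, calls ranged from 228 (without ZT18A) to 792 (DESeq2) around 458 for rhythm, 187 (cells with at least 3000 UMIs) to 767 (index column block) around 306 for ZT12 against ZT0, 50 (without ZT6A) to 730 (replicate letter block) around 338 for ZT18 against ZT6, 1 (without ZT6A) to 140 (no filter) around 45 for the even contrast, 1234 (cells with at least 3000 UMIs) to 2541 (library totals alone) around 2210 for zone, and 0 (a filter at 20 CPM) to 46 (no filter) around 4 for zone-dependent rhythm. With library totals alone, the median gene moved by 0.13 between ZT12 and ZT0, where 66.667% of calls were then higher against 50.654%, and by -0.11 between zones, where 27.942% of calls were then periportal against 48.326%. Pathway calls were 6 for rhythm (11 with the index column block), 5 for ZT12 against ZT0 (8 with the letter block, 12 with the index column block) and 4 for ZT18 against ZT6 (8 with the letter block, 2 without ZT18B, 2 in cells with at least 3000 UMIs). The causes were not tested. Depth limits Cidec, Gpam and Dgat1 most.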

Other observations

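The perilipins Plin1 and Plin4 had a mean under 3 CPM, were not tested, and are given as values. Plin1, the coat protein of large droplets in fat cells, had 4.96 ± 0.192 CPM at ZT18 (SD, n = 2) and 0.716 ± 0.805 at ZT0, 0.876 ± 0.124 at ZT6 and 0.809 ± 0.887 CPM at ZT12, from 58 UMIs in all. It made up most of the summed adipocyte markers at ZT18 (5.10 to 6.11 CPM). Plin4 had 4.63 ± 1.55 CPM at ZT12 (n = 3), against 1.36 ± 0.700 at ZT0, 1.36 ± 0.254 at ZT6 and 1.96 ± 0.0367 CPM at ZT18, from 91 UMIs. Agpat1, Lpin3, Mogat1, Mogat2 and Agpat4 of the synthesis list were also under the filter, with 3 to 87 UMIs each.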
